A study of Mus musculus with 9 samples.

Results

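The genes described here encode the cargo, the processing enzymes and the membrane marker of neuroendocrine secretory vesicles. They are 10 genes listed by symbol (Chga, Chgb, Scg2, Scg3, Scg5, Vgf, Pcsk1, Pcsk2, Cpe and Syp) out of 54347 genes in the deposited table. All 10 were among the 15532 genes that passed the filter on low counts. The study sequenced RNA from 6 pancreatic neuroendocrine tumors (PanNETs) of INS-p25OE mice, here M1 to M6, and from 3 samples labelled as normal islets, NI1 to NI3. INS-p25OE mice carry the Ins2-rtTA and tetOp-p25GFP transgenes, so that doxycycline in the drinking water, given from weaning, induces p25 fused to GFP in cells that use the insulin promoter. p25 is a fragment of p35, the product of Cdk5r1, and activates the kinase Cdk5 aberrantly. The study calls M1, M2 and M3 functional and M4, M5 and M6 non-functional tumors, which in its work refers to hormone levels in blood, and the titles of M1 to M3 carry an added word that those of M4 to M6 lack. The islet samples are labelled with the strain C57BL/6, the background of the whole colony, and the controls of the colony were transgene-negative littermates. M2 was labelled as coming from a female and the other 8 samples from males, and the ages of these animals are not given in the sources used here. The model reports on tumors that arise where an insulin promoter was active, and each library can hold RNA of the other cells in the tissue taken.

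Peptide hormones are made as larger precursors that are packed into dense-core granules in the trans-Golgi network, cut there to size and stored until a stimulus releases them. Granins (Chga, Chgb, Scg2, Scg3) are acidic proteins that aggregate in the granule and help to sort its cargo, and Vgf encodes a related precursor of peptides. The convertases PC1/3 (Pcsk1) and PC2 (Pcsk2) cut the precursors after paired basic residues, 7B2 (Scg5) is the chaperone that PC2 needs in order to mature, and carboxypeptidase E (Cpe) trims the basic residues that the cuts leave behind. Synaptophysin (Syp) is a membrane protein of small synaptic-like vesicles, and together with chromogranin A (Chga) it is a routine histological marker of neuroendocrine tumors.

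The promoters of several granule genes hold a cAMP response element, the site bound by CREB family factors, close to the start of transcription. These are shown because the genes of those factors are among those measured below. The RefSeq promoter table for GRCm38.p6, with 250 bases before to 50 after each start, held 8 of the 10 genes and no entry for Vgf or Cpe. The letters TGACGTCA, which read the same on both strands, were found in 3 of these 8 windows and in 1.79% of 32851 mouse promoter windows of the same length. The variant TGACGTAA, or TTACGTCA on the other strand, was found in the Chga window and in 0.499% of all windows. Here it was listed as the variant of Chga, so its match in that window is no separate result. The shorter letters TGACG, or CGTCA on the other strand, which both of these contain, were found in 7 of the 8 windows and in 20.8% of all windows. The element with 30 bases on either side is printed below on the strand of the gene, with the element in capitals. A match of letters is a description of the sequence and does not show that a factor binds there.
Scg2: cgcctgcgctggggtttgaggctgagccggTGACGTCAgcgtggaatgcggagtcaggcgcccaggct
Chgb: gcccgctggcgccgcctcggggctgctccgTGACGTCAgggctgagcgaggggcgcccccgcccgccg
Pcsk1: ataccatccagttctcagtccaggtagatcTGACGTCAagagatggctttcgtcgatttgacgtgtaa
Chga: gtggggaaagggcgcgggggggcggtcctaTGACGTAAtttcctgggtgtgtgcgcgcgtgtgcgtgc

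The printed stretch of Scg2 lies at chr1:79440057-79440124 on the minus strand, and its element begins 68 bases before the RefSeq start. That of Chgb lies at chr2:132781540-132781607 on the plus strand, 72 bases before the start. That of Pcsk1 lies at chr13:75089749-75089816 on the plus strand, 78 bases before the start, and that of Chga at chr12:102554867-102554934 on the plus strand, 44 bases before it. The elements of these 4 genes thus sit within a similar distance of their RefSeq start sites.

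Library totals ran from 36468280 to 63637175 estimated counts, and the members were deeply covered, with from 5810 to 1083818 counts in any library for the 9 genes other than Vgf and from 18 to 1857 for Vgf. Levels are given as CPM, counts relative to the library total, scaled by TMM, which corrects for libraries dominated by a few genes. The libraries did not all follow their labels. Cdk5r1, the gene of the precursor of p25, stood at 149.2 to 401.1 CPM in the tumors, at 18.4 in NI2 and 12.5 in NI3, and at 279.6 in NI1. Of the 36 pairs of libraries, M6 and NI1 were the closest, with a median absolute difference of 0.105 in log2(CPM + 1) and 77.0% of genes within 0.2, whereas the other 35 pairs had medians of 0.205 to 0.613. The library labelled NI1 was not a copy of M6, since Gcg (glucagon) was at 787.2 CPM in NI1 and 34.6 in M6, and Fos was at 155.9 and 1.41. The members' values against the islets are therefore given with all 9 libraries and without NI1. They are also given without M6 and NI1 together where that changes a call in tumors against islets, a fit chosen after the data were seen. NI1 too was singled out by its values in these data, and without it 2 islet libraries remain. The genes edgeR called in tumors against islets went from 40 with all libraries to 1321 without NI1, so calls without NI1 depend on that choice. For the gene lists, single fold changes are those without NI1 unless said otherwise, and genes called there are also given with all libraries. M4 had 32.1% of its counts on mitochondrially encoded genes, against 1.76% to 8.41% in the other 8 libraries.

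The same likeness held gene by gene for the granule genes. NI1 lay inside the range of the 6 tumors for 10 of 10 members. The share of all genes inside that range was not counted. M6 and NI1 were close over all genes (77.0% within 0.2 in log2(CPM + 1)), so the likeness is not particular to the members. The ratio of NI1 to M6 was between 0.900 and 1.09 for 9 of 10 members. The exception was Vgf, at 2.07 CPM in NI1 and 0.317 in M6, a ratio of 6.55. The mean of NI2 and NI3, in contrast, exceeded NI1 by 3.01-fold for Scg5, by 2.83-fold for Chga and by 18.8-fold for Vgf, but by 1.02-fold for Pcsk1.

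**Figure D1:**
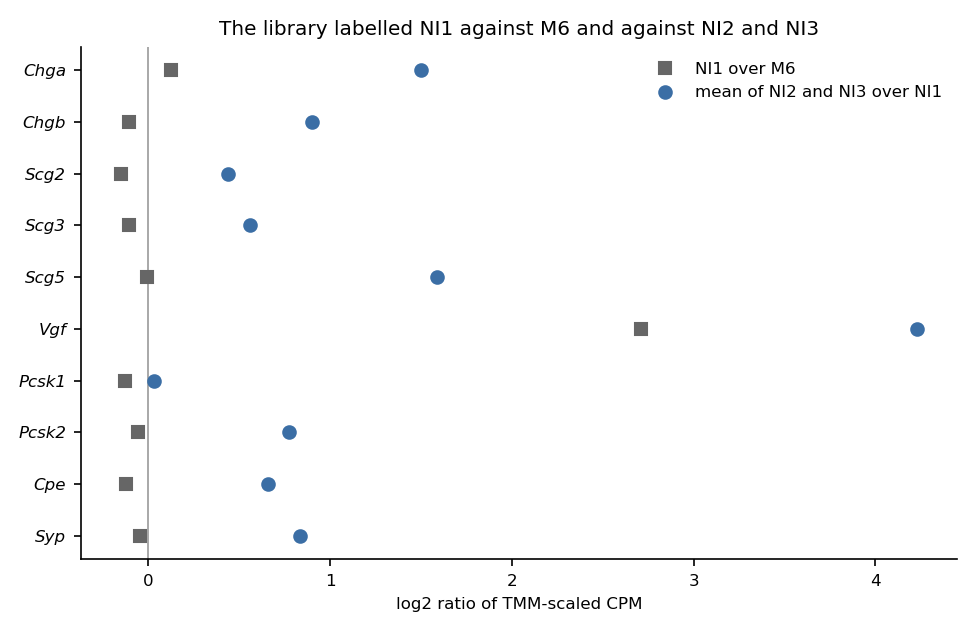
Each row is 1 member and the x axis is the log2 ratio of TMM-scaled CPM. Grey squares give NI1 over M6, which lie close to 0 for 9 of 10 members (ratios 0.900 to 1.09) with Vgf apart at 6.55, and blue circles give the mean of NI2 and NI3 over NI1, which is above 0 for every member.

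Per kilobase of exon, the most abundant members in the tumors were Chga, at 3502 ± 2560 CPM per kb (SD, n = 6), and Scg2, at 2586 ± 1356. Chga was above Scg2 in 4 of 6 tumors only, so that the order of these granins differed between tumors. Cpe followed at 862 ± 369 CPM per kb, below Scg2 and above Scg3 in 6 of 6 tumors. Scg3 (517 ± 124) was above Chgb (461 ± 113) in 5 of 6 tumors, and their ranges overlapped. Pcsk2 (204 ± 53.8) was above its chaperone gene Scg5 (188 ± 34.8) in 4 of 6 tumors, whereas in both NI2 and NI3 the order was the opposite, with Scg5 at 692 and Pcsk2 at 473 CPM per kb on average. The length used merges all annotated exons of a gene, and the order of genes depends on it. In CPM not divided by length, Pcsk2 was above Scg5 in every library, at 4233 against 1354 in NI3. Pcsk1 (84.9 ± 31.6) was above Syp (61.2 ± 11.9) in 5 of 6 tumors. Vgf was the lowest, at 1.36 ± 2.45 CPM per kb, and in NI2 and NI3 it was again the lowest, at 13.1 on average. In every tumor, 9 of the 10 genes were at 46.2 CPM per kb or more.

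**Figure D2:**
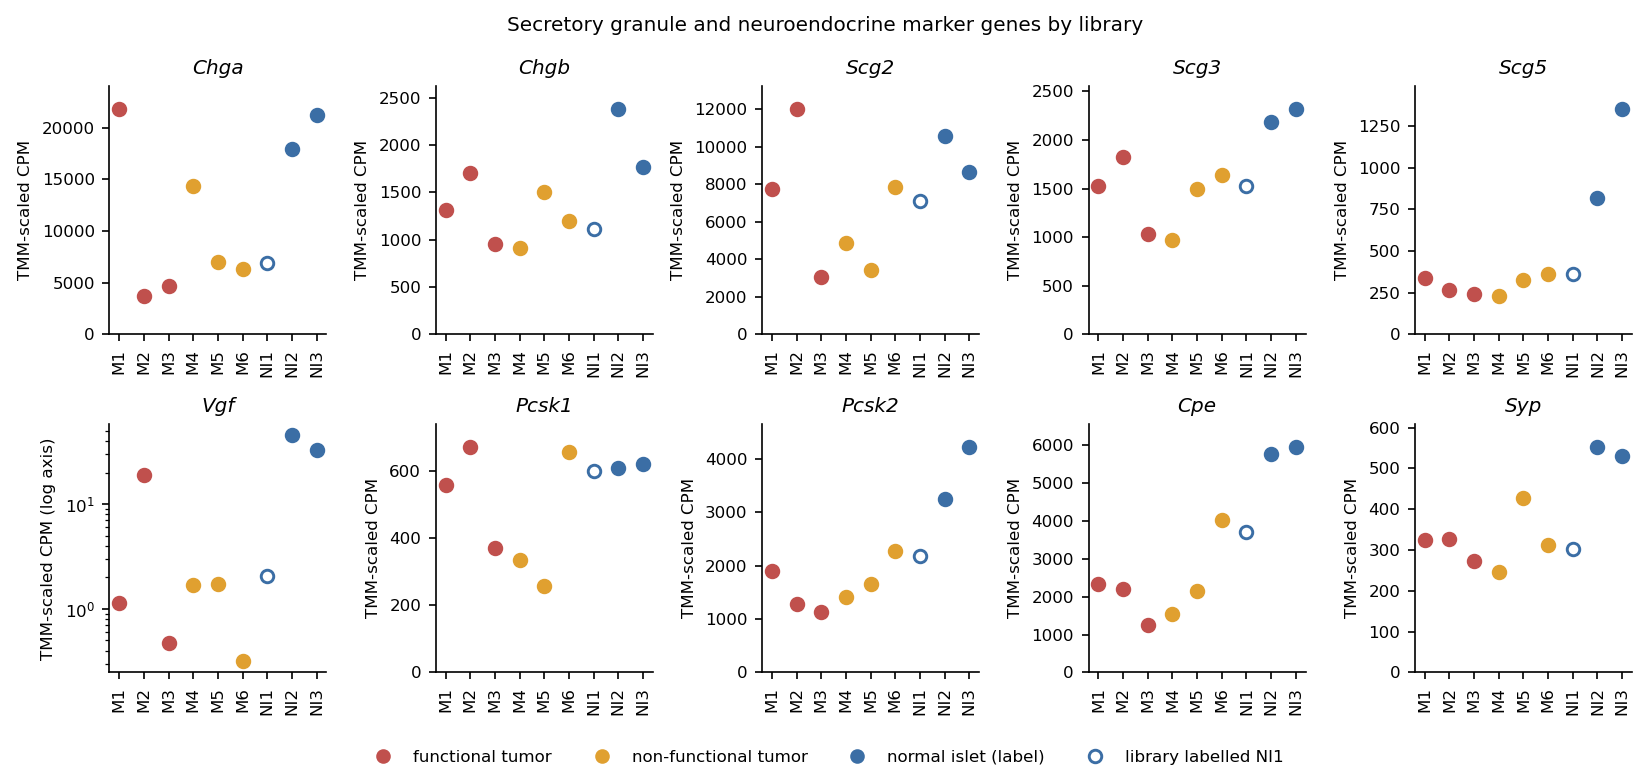
Each panel shows 1 member, with the 9 libraries on the x axis and TMM-scaled CPM on the y axis (linear from 0, but a log axis for Vgf), coloured by group, with the library labelled NI1 as an open circle. Scg5, Pcsk2, Cpe, Syp, Scg3, Chgb and Vgf have 6 of 6 tumors below NI2 and NI3, and NI1 lies among the tumors.

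Tumors were first compared with islets as a single group of 6. All 10 members had a lower mean in the tumors, and with all 9 libraries 0 of 10 passed edgeR's quasi-likelihood test after Benjamini-Hochberg adjustment over all genes (adjusted p from 0.133 to 0.665), beside 0.258% of all genes called lower. Before adjustment, 4 members had an edgeR p under 0.05 (Scg5, Pcsk2, Cpe and Vgf), beside 1419 of 15532 genes lower at that threshold. DESeq2 called 3 (Scg5, Pcsk2 and Cpe), beside 3.17% of all genes called lower by that tool. Without NI1, edgeR called 1 of 10 members, Scg5, beside 3.17% of genes called lower. Without M6 and NI1 it called Scg5 and Cpe, beside 3.59%. The median log2 fold change of the members was -0.60 with all libraries and -0.89 without NI1, against 0.03 and 0.05 over all genes. Not one member had all 6 tumors below all 3 islet libraries, a separation that 3.17% of all genes showed. With NI1 set aside, 7 of 10 members had 6 of 6 tumors below both NI2 and NI3, which 16.3% of all genes did. In bulk RNA, fewer cells of a type and less RNA per cell cannot be told apart.

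Scg5, which encodes the PC2 chaperone 7B2, showed the clearest difference. In the tumors it was at 335.5, 267.8 and 244.3 CPM in M1 to M3 and at 230.3, 327.6 and 363.4 in M4 to M6. In the islets it was at 361.4 CPM in NI1, 818.5 in NI2 and 1354 in NI3. The tumors were tightly grouped (294.8 ± 54.6, SD, n = 6) and NI1 lay just under the highest of them, while NI2 and NI3 stood apart from all other libraries and also from each other. With all libraries the log2 fold change was -1.52 (SE 0.34) with an adjusted p of 0.133 by edgeR's quasi-likelihood test. Without NI1 Scg5 fell by 1.88 on the log2 scale (SE 0.27, edgeR adjusted p = 0.00615), and the tumor mean was 27.1% of the mean of NI2 and NI3. Without M6 and NI1 the log2 fold change was -1.95 (SE 0.29, edgeR adjusted p = 0.00844). Over 19 alternatives to the fit of all libraries, the adjusted p for Scg5 ranged from 0.00128 to 0.566 and was under the threshold in 3.

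PC2 itself, encoded by Pcsk2, followed a similar order. It was at 1911, 1289.9 and 1131 CPM in M1 to M3, at 1415, 1666 and 2274 in M4 to M6, and at 2188, 3253 and 4233 in NI1 to NI3. Again NI2 and NI3 were above 6 of 6 tumors and NI1 lay between M6 and the other 5 tumors. Its log2 fold change was -0.998 (SE 0.33, edgeR adjusted p = 0.168) with all libraries and -1.21 (SE 0.35, edgeR adjusted p = 0.0624) without NI1, so Pcsk2 did not pass the edgeR test in either fit. An antisense gene, Pcsk2os1, overlaps Pcsk2 with at most 1021 counts in a library, against at least 35707 for Pcsk2, and since use of the strand in counting is not stated, reads of such a pair cannot be told apart.

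Pcsk1, the gene of PC1/3, behaved differently among the islet libraries. They held 602.0, 611.0 and 622.1 CPM in NI1 to NI3, a spread of 611.7 ± 10.1 (SD, n = 3). The tumors ran from 258.9 in M5, 335.6 in M4 and 370.1 in M3 to 559.5 in M1, 657.3 in M6 and 673.2 in M2, and so lay on both sides of the islets. The log2 fold change was -0.36 (SE 0.32, edgeR adjusted p = 0.552), and without NI1 it was -0.37. For this convertase the tumors spread over a 2.60-fold range around a nearly constant islet level.

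Cpe, which encodes carboxypeptidase E, was at 2326, 2206 and 1259 CPM in M1 to M3 and at 1541, 2141 and 4021 in M4 to M6. The islet libraries held 3701 in NI1, 5753 in NI2 and 5953 in NI3. M6 and NI1 formed a level of their own between the other 5 tumors and NI2 and NI3. Its log2 fold change was -1.19 (SE 0.40, edgeR adjusted p = 0.170) with all libraries and -1.38 (SE 0.44, edgeR adjusted p = 0.0853) without NI1. Without M6 and NI1 Cpe fell by 1.63 on the log2 scale (SE 0.40, edgeR adjusted p = 0.0373).

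Among the granins, Chga varied most between tumors. It was at 21835 CPM in M1, 3698 in M2 and 4637 in M3, at 14358.5 in M4, 7018 in M5 and 6359 in M6, and at 6923, 17921 and 21239 in NI1 to NI3. M1 exceeded every islet library while M2 was 5.90-fold lower than M1, so the tumors spanned the islet range. The log2 fold change was -0.67 (SE 0.67, edgeR adjusted p = 0.602) with all libraries and -1.02 (SE 0.72, edgeR adjusted p = 0.396) without NI1. Scg2, which encodes secretogranin II, had a 3.95-fold range among tumors, with 7732, 12043 and 3048 CPM in M1 to M3 and 4891, 3418 and 7887 in M4 to M6, against 7098, 10581 and 8645 in NI1 to NI3. Its highest library was the tumor M2, the one with the least Chga. The log2 fold change of Scg2 was -0.43 (SE 0.51, edgeR adjusted p = 0.665) with all libraries and -0.56 (SE 0.59, edgeR adjusted p = 0.581) without NI1.

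Chgb and Scg3, the chromogranin B and secretogranin III genes, were steadier. Chgb was at 1310.0, 1705 and 960.0 CPM in M1 to M3, at 907.8, 1500.4 and 1196 in M4 to M6, and at 1111, 2385 and 1768 in NI1 to NI3. Scg3 was at 1522, 1824 and 1032 CPM in M1 to M3, at 973.7, 1495 and 1643 in M4 to M6, and at 1527, 2182 and 2322 in NI1 to NI3. Both genes had 6 of 6 tumors below NI2 and NI3, with M2 the highest and M4 the lowest tumor. Their log2 fold changes were -0.47 (SE 0.32) and -0.51 (SE 0.30), and without NI1 they were -0.72 and -0.67, not past the edgeR test in either fit.

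Vgf was the least abundant member and had the largest fold change with the widest error. It was at 1.13, 18.8 and 0.473 CPM in M1 to M3, at 1.70, 1.72 and 0.317 in M4 to M6, and at 2.07, 45.3 and 32.5 in NI1 to NI3. M2 stood far above the other 5 tumors and yet below NI2 and NI3. The log2 fold change was -2.72 (SE 1.22, edgeR adjusted p = 0.252) with all libraries, -3.26 (SE 1.22, edgeR adjusted p = 0.126) without NI1, and -4.65 (SE 0.89, edgeR adjusted p = 0.132) without M2. Syp, the synaptophysin gene, was at 325.4, 326.6 and 273.1 CPM in M1 to M3, at 247.0, 427.8 and 312.7 in M4 to M6, and at 303.5, 553.2 and 530.8 in NI1 to NI3. Its 6 tumors lay within a 1.73-fold range, and its log2 fold change was -0.54 (SE 0.25, edgeR adjusted p = 0.259) with all libraries and -0.77 (SE 0.24, edgeR adjusted p = 0.0779) without NI1.

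**Figure D3:**
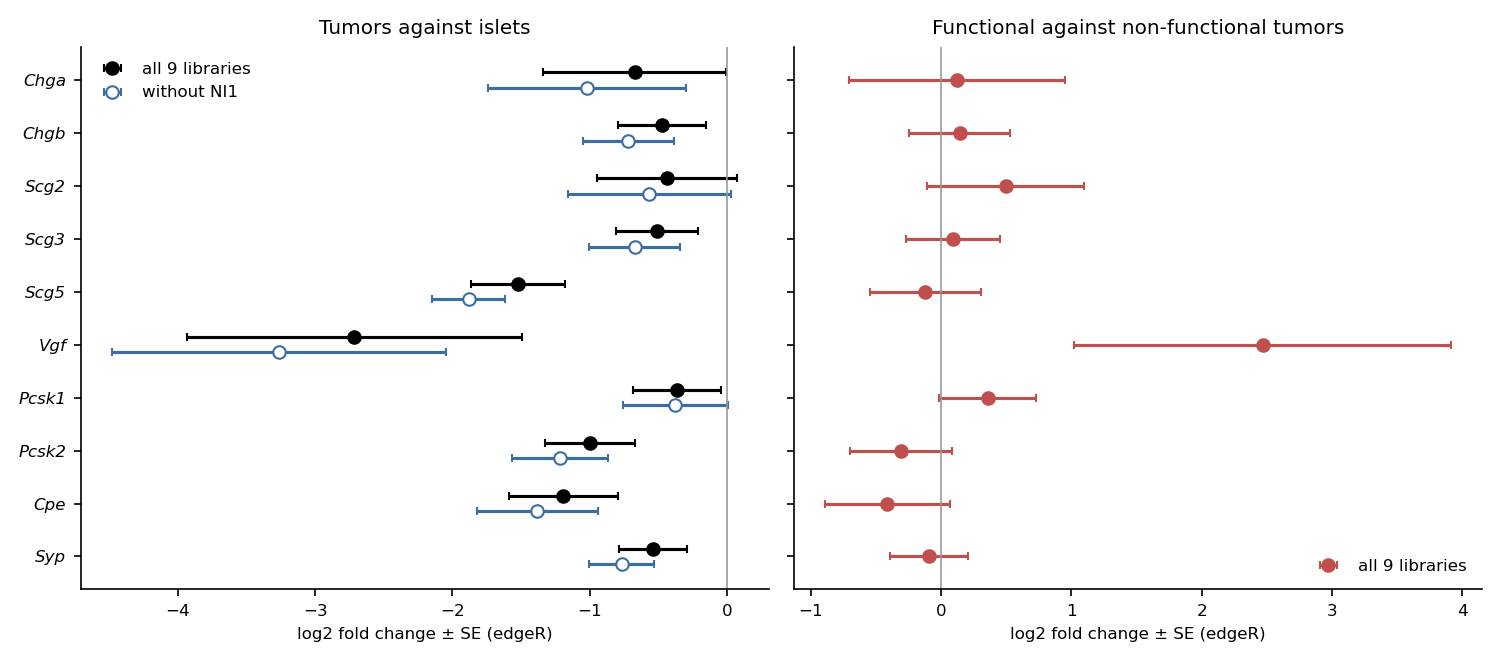
The x axes give edgeR's log2 fold change and the bars its standard error. On the left, tumors against islets are shown with all 9 libraries (black, -2.72 to -0.36) and without NI1 (blue open circles, -3.26 to -0.37), every estimate being below 0. On the right, functional against non-functional tumors, 9 of 10 estimates lie within 0.50 of 0, and Vgf lies at 2.47 with an SE of 1.44.

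Sums of some cell type markers differed between the tumors and the islet libraries. Those of the delta, pancreatic polypeptide, ductal, pericyte, endothelial, and Schwann and neuron lists, not detailed here, overlapped between tumors and islet libraries. The summed level of 5 alpha cell markers was 283.7 to 814.3 CPM in the tumors, 1570.0 in NI1 and 3265 and 15657 in NI2 and NI3, and alpha cells also use PC2, 7B2 and carboxypeptidase E. Much of these sums was Gcg, at 2312 CPM in NI2 and 14256 in NI3. Without NI1, Gcg and Ttr (log2 fold change -2.31, edgeR adjusted p = 0.0460) were called lower, 1 other of the 5 went the other way and was called higher, and Irx2 did not pass. The sum of 12 acinar markers was 0.806 to 252.8 CPM in the tumors, 384.5 in NI1 and 473.1 and 7026 in NI2 and NI3. The sum of 9 beta cell markers, which include Ins1 and Ins2, was 18407 to 116760.0 CPM in the tumors, 121927 in NI1 and 327608 and 365133 in NI2 and NI3. Much of these sums was insulin. Without NI1, Pdx1, Nkx6-1 and Mafa had log2 fold changes of 0.44, 0.14 and 0.15 and did not pass the edgeR test. The other listed beta cell markers were below 0, and 1 was called lower. Of 10 genes induced by tissue dissociation, Fos among them, 8 were called lower in the tumors with all 9 libraries, with sums of 84.6 to 151.4 CPM against 551.3 in NI1 and 2579 and 1367 in NI2 and NI3. The sum of 6 fibroblast markers was 102.6 to 2049 CPM in the tumors, highest in M4, and 119.5 to 182.4 in the islet libraries. The sum of 6 lymphoid markers was 4.33 to 97.5 CPM in the tumors and 134.6 to 145.8 in the 3 islet libraries, with 2 called lower with all libraries and 3 without NI1. The sum of 5 macrophage markers was 301.8 to 799.0 CPM in the tumors, 291.9 in NI1 and 213.0 and 130.4 in NI2 and NI3, with 0 called with all libraries and 2 called higher without NI1. The part of these cells in the results above was not tested. Of 3 markers of adrenal chromaffin cells, another granin-rich cell type, Th, which encodes tyrosine hydroxylase, was at 10.9 to 183.9 CPM in the tumors, 10.4 in NI1 and 29.4 and 30.6 in NI2 and NI3, and did not pass the edgeR test with or without NI1. The other markers, Pnmt and Dbh, were at 0 in all 9 libraries, where a count of 0 allows up to 0.0425 to 0.119 CPM (3 counts).

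Functional and non-functional tumors were each set against the islets in a fit of 3 groups, and both comparisons share the 3 islet libraries. With all libraries 0 of 10 members passed edgeR's test in the functional tumors, beside 0.431% of genes called lower. At an unadjusted p under 0.05 there were 3 members, beside 1525 of 15532 genes lower. In the non-functional tumors 0 of 10 passed, beside 0.0% of genes, and 2 had an unadjusted p under 0.05, beside 961 of 15532 genes lower. Without NI1, Scg5 alone was called in each, beside 2.85% and 1.15% of genes called lower. Its log2 fold change was then -1.94 (SE 0.33, edgeR adjusted p = 0.0145) in functional tumors and -1.82 (SE 0.33, edgeR adjusted p = 0.0268) in non-functional ones. Cpe had log2 fold changes of -1.60 (SE 0.53) and -1.19 (SE 0.53) without NI1, and neither passed the edgeR test. Vgf had -2.51 (SE 1.32) and -4.98 (SE 1.45), and neither passed.

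Functional and non-functional tumors were then compared directly. Of the 10 members 0 were called by edgeR's quasi-likelihood test, beside 0.0% of all genes. By that test 0 members had an unadjusted p under 0.05, beside 732 of 15532 genes higher and 866 lower. DESeq2 also called 0 of the 10 members, beside 111 of 15532 genes. The log2 fold changes ran from -0.41 (Cpe, SE 0.48) to 2.47 (Vgf, SE 1.44), and the smallest edgeR adjusted p was 0.572, for Vgf. The Vgf value came from M2, since without it the log2 fold change was -0.62 (SE 1.15). Pcsk1 was at 534 ± 153 CPM in functional and 417 ± 211 in non-functional tumors (SD, n = 3 each), with a log2 fold change of 0.36 (SE 0.37). Without M6 and NI1 that of Pcsk1 was 0.85 (SE 0.32, edgeR adjusted p = 0.291). Scg5 was at 283 ± 47.4 and 307 ± 68.9 CPM and Syp at 308 ± 30.6 and 329 ± 91.5, in both cases with wide overlap. For Chga the means were 10057 ± 10211 and 9245 ± 4441 CPM, and the spread within each group was larger than the difference between them. The log2 fold change of Chga was 0.12 (SE 0.83) with all libraries and -1.15 without M1. The standard errors of 0.30 to 1.44 show which differences these 6 tumors could not resolve, and a missing call does not show that the groups were alike.

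Ratios between members of a library do not depend on how libraries were scaled, and these ratios were chosen after the values were seen and carry no test. Per kilobase, Chga exceeded Chgb by 16.6-fold in M1 and 15.7-fold in M4, but by 2.16-fold in M2 and by 4.65-fold to 5.28-fold in M3, M5 and M6, against 6.19, 7.47 and 11.9 in NI1 to NI3. The tumors M1 and M4, one functional and one non-functional, thus shared a balance of chromogranins richer in Chga than any other library. The ratio of Scg2 to Chga was 3.57 in M2 and 1.36 in M6, and was under 1 in the other 4 tumors. The ratio of Pcsk2 to Pcsk1 ran from 1.36 in M2 to 4.56 in M5 among tumors, and was 2.57, 3.77 and 4.82 in NI1 to NI3. The ratio of the chaperone gene Scg5 to Pcsk2 was 0.806 to 1.09 in the 6 tumors and 0.833 in NI1, and 1.27 and 1.61 in NI2 and NI3, so the tumors did not overlap with NI2 and NI3 on this measure.

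**Figure D4:**
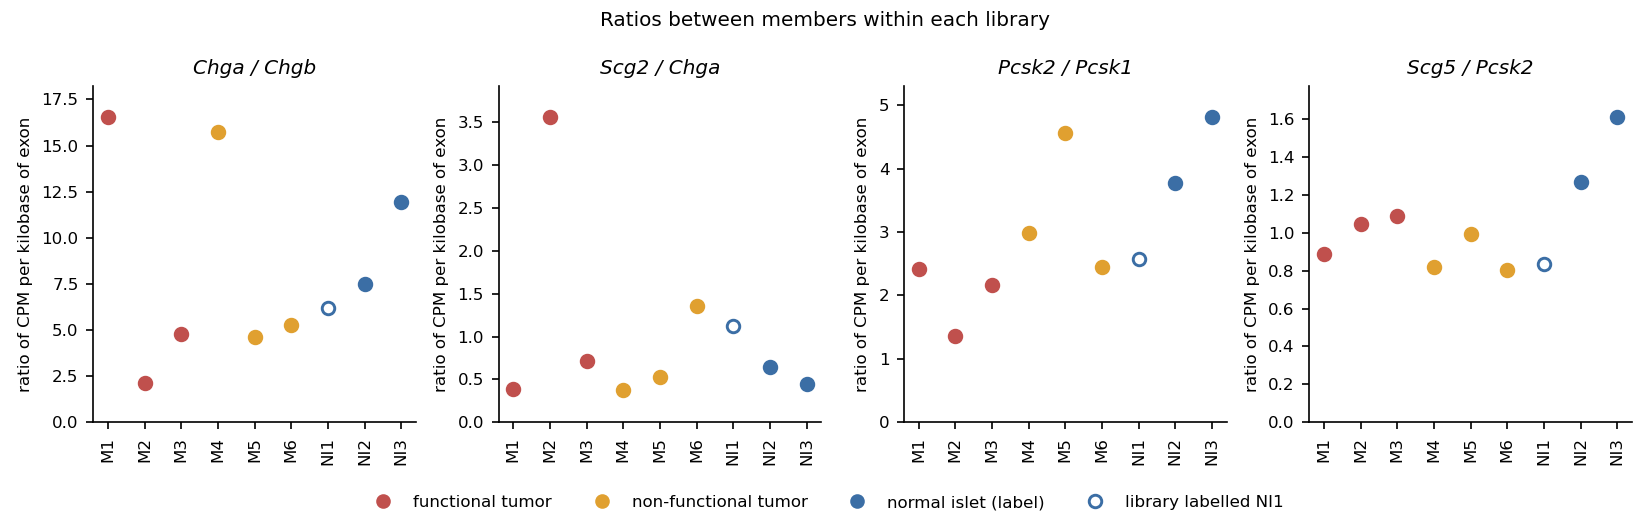
Each panel shows the ratio of the CPM per kilobase of exon of 2 members (y axis, linear from 0) in each of the 9 libraries (x axis), coloured by group with NI1 open. M1 and M4 have the highest Chga to Chgb ratios (16.6 and 15.7), M2 the highest Scg2 to Chga ratio (3.57), and NI2 and NI3 the highest Scg5 to Pcsk2 ratios (1.27 and 1.61).

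The members were also set against their main cargo, the insulins. Ins1 and Ins2 together were at 11140.5 to 105880.0 CPM in the tumors, 110548 in NI1 and 290134 and 324677 in NI2 and NI3. The summed CPM of the 10 members was 1.52 times that of the insulins in M2 and 1.16 times in M3, 0.480 in M1, 0.454 in M4, 0.226 in M5 and 0.233 in M6. It was 0.215 in NI1, 0.152 in NI2 and 0.144 in NI3. Every tumor therefore had a higher ratio of this sum to the insulins than NI2 and NI3, although 7 members had lower levels in all 6 tumors than in both of these libraries. Chga and Scg2 were the largest terms of the sum in every library, and the insulins were also lower in every tumor than in NI2 and NI3. Ratios of single members to the insulins were not examined, so the statement holds for the sum alone.

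Across pairs of members, the closest over the 6 tumors in log2(CPM + 1) were Chgb with Scg3 (Pearson r = 0.90), Scg2 with Pcsk1 (r = 0.89), Scg5 with Pcsk2 (r = 0.89) and Pcsk2 with Cpe (r = 0.88). Chga was the least tied to the rest, with r from -0.38 (Vgf) to 0.42 (Pcsk2). These are descriptions over 6 libraries that differ in composition and depth. Over all 9 libraries, the genes outside the members and lists whose profile was most like the mean of the scaled members were Gla (r = 0.988), Rpn2 (r = 0.987), Ap3s1 (r = 0.982), Ociad1 (r = 0.981) and Emc7 (r = 0.981). Gla encodes a lysosomal galactosidase, Rpn2 a subunit of the oligosaccharyltransferase of the endoplasmic reticulum, and Ap3s1 a subunit of the AP-3 vesicle coat adaptor.

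Other genes of granule formation and release were examined as lists in tumors against islets. With all 9 libraries 0 genes were called in any of the 7 lists by edgeR's quasi-likelihood test, and at an unadjusted p under 0.05 each list had 0 to 6 genes below the islets and 0 to 3 above them. DESeq2 called 0 to 4 genes per list. Without NI1, of 11 other prohormone processing genes 2 were called lower and 0 higher, beside 3.17% and 5.34% of all genes, and the median log2 fold change was -0.53 against 0.05 for all genes. Pam, which encodes the enzyme that amidates peptides, fell by 1.82 (SE 0.37, edgeR adjusted p = 0.0209), from 955.8 ± 1.70 CPM (SD, n = 2) in NI2 and NI3 to 270 ± 113 in the 6 tumors. Pcsk6, a convertase of the constitutive pathway, fell by 1.76 (SE 0.37, edgeR adjusted p = 0.0234). With all libraries neither was called, the edgeR adjusted p being 0.139 for Pam and 0.148 for Pcsk6. The convertase genes Pcsk4 and Pcsk5 had log2 fold changes of 1.12 (SE 0.60) and 1.38 (SE 0.98) and did not pass.

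Of 28 genes of the granule membrane and of exocytosis, 3 were called lower and 0 higher without NI1, beside 3.17% and 5.34% of all genes, with a median of -0.05. Syt5, a synaptotagmin of dense-core vesicles, fell by 3.59 (SE 0.47, edgeR adjusted p = 0.00426), and its tumors held 1.22 to 7.00 CPM against 7.78 in NI1, 52.6 in NI2 and 46.1 in NI3. Ptprn, which encodes the granule membrane protein IA-2, had a log2 fold change of -1.499 (SE 0.32, edgeR adjusted p = 0.0237), and the small GTPase gene Rab3d fell by 1.29 (SE 0.23, edgeR adjusted p = 0.0143). With all libraries the edgeR adjusted p was 0.0726 for Syt5, 0.152 for Ptprn and 0.137 for Rab3d. Cadps2, a priming factor of dense-core granules, was at 0.141 to 2.31 CPM in 5 tumors, 18.9 in M6, and 15.9, 21.6 and 23.6 in NI1 to NI3. It was called when M6 and NI1 were both left out (log2 fold change -4.77, SE 0.81, edgeR adjusted p = 0.0127), and not when NI1 alone was (-2.55, SE 1.39, edgeR adjusted p = 0.275). Doc2b, a calcium sensor of exocytosis, and Sytl4, the gene of granuphilin, had log2 fold changes of 2.55 (SE 0.79) and 0.81 (SE 0.64) without NI1 and did not pass.

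Of 8 genes of granule biogenesis 0 were called with or without NI1. Before adjustment 1 and 4 of them were below the islets with an edgeR p under 0.05, beside 1419 and 1793 of all 15532 genes. The median without NI1 was -0.43, from Tgoln1 at -0.93 (SE 0.31) and Hid1 at -0.89 (SE 0.37) to Ica1 at -0.22 and Pick1 at 0.38. Of 11 other synaptic vesicle genes, relatives and partners of Syp, 0 were called with or without NI1, and before adjustment 1 was below the islets with a p under 0.05 in both fits. Their median was 0.07, with log2 fold changes of -0.91 (SE 0.62) for Synpr, -0.59 (SE 0.19) for Sypl, 0.53 (SE 1.03) for Syt1 and 0.81 (SE 1.31) for Sv2c. Synpr, which encodes synaptoporin, was at 52.7 CPM in M6 and 47.9 in NI1, above NI2 and NI3 (38.1 and 35.99) and above the other 5 tumors (6.78 to 18.7). It was called lower when M6 and NI1 were both left out (log2 fold change -1.4999, SE 0.36, edgeR adjusted p = 0.0345).

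The list of 12 neuroendocrine transcription factors and markers had a median log2 fold change of 0.52 without NI1, against 0.05 for all genes. Without NI1 1 gene of this list was called higher and 0 lower, beside 5.34% and 3.17% of all genes. With all libraries, and without M6 and NI1, 0 were called. Eno2, the gene of neuron-specific enolase, had a log2 fold change of 1.06 (SE 0.39, edgeR adjusted p = 0.122) without NI1. It was at 56.0 to 167.7 CPM in the tumors and 41.2 to 52.5 in the islet libraries, the lowest tumor, M6, being close to NI1. Resp18, a granule protein gene related to Ptprn, was at 258 to 537 CPM in 5 tumors and 1803 in M5, with a log2 fold change of -0.70 (SE 0.64). Neurod1, a transcription factor of endocrine cells, was at -0.08 (SE 0.22) with all libraries and 0.08 (SE 0.25) without NI1.

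The genes of the factors that bind the element printed above, with partners and a repressor, were measured as well. Of 8 such regulators 1 was called lower and 0 higher without NI1, beside 3.17% and 5.34% of all genes, with a median of 0.06. Crem, which encodes activators and inducible repressors of cAMP response elements, fell by 1.30 (SE 0.33, edgeR adjusted p = 0.0415), from 31.1 and 31.2 CPM in NI2 and NI3 to 9.03 to 21.1 in the tumors, with NI1 at 10.2. The edgeR adjusted p of Crem was 0.224 with all libraries and 0.0534 without M6 and NI1, so the call was made only without NI1 alone. Creb1 had a log2 fold change of -0.18 (SE 0.25) and Atf1 of 0.18 (SE 0.22). Rest, the repressor that keeps neuronal and granule genes silent in other cells, was at 3.34 to 12.2 CPM in the tumors and 3.57 to 4.83 in the islet libraries, with a log2 fold change of 0.45 (SE 0.55).

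The islet hormones themselves had the lowest median of the 7 lists, -2.26 without NI1, with 1 of 7 called lower beside 3.17% of all genes. Gcg fell by 7.09 on the log2 scale (SE 1.19, edgeR adjusted p = 0.0110), from 2312 and 14256 CPM in NI2 and NI3 to between 10.03 and 238.6 in the tumors, and its edgeR adjusted p with all libraries was 0.0704. Pyy (-3.28, SE 1.17), Sst (-1.55, SE 1.95) and Ppy (-1.34, SE 0.99) did not pass, and with NI3 left out in place of NI1 Sst was at 1.24 and Ppy at 0.83. Ins1 (-2.26, edgeR adjusted p = 0.0891) and Ins2 (-2.45, edgeR adjusted p = 0.175) did not pass either.

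**Figure D5:**
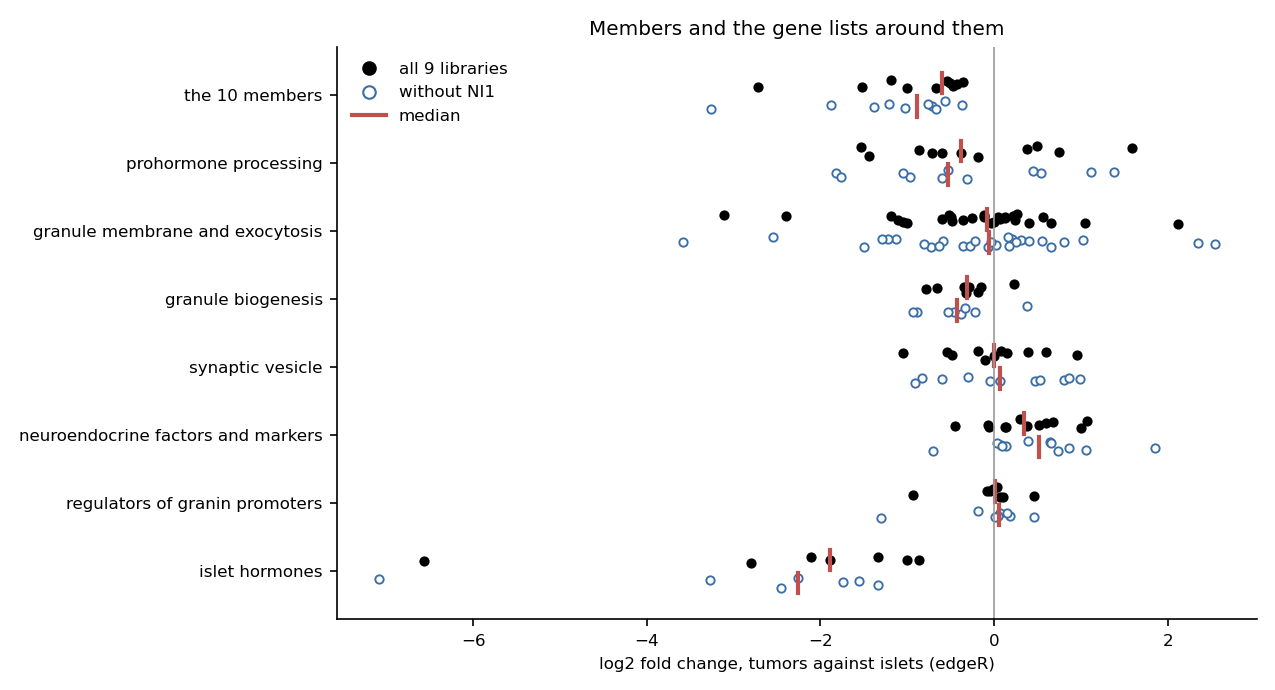
Each point is the edgeR log2 fold change of 1 gene in tumors against islets (x axis) for the 10 members and for each gene list (rows), with all 9 libraries in black and without NI1 as blue open circles, and red bars mark medians. The members have a median of -0.60 (-0.89 without NI1), between the islet hormones (-1.89 and -2.26) and the synaptic vesicle list (near 0 and 0.07).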

How the data were processed

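RNA from 6 tumors and 3 islet samples was sequenced, 1 library each. The authors isolated RNA with RNeasy Plus, made NEBNext Ultra libraries, trimmed single-end reads with Trimmomatic 0.38 and quantified them with salmon 1.4.0 on mm10. They deposited estimated counts, all of them whole numbers. Its name says TPM, yet library sums of 36468280 to 63637175 are those of counts, and it was treated as such. How transcripts were summed to genes and whether strand was used are not given in the sources used here. Such estimates split reads between similar transcripts and carry no interval for that step. Of 54347 identifiers, 54094 matched GENCODE for GRCm38, the source of symbols and exon lengths. The 253 others held at most 0.0235% of a library.

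The filter was a minimum of 1 CPM in 3 or more libraries. The remaining 15532 genes were TMM-scaled and fitted with edgeR 4.0.16 (R 4.3.3), whose quasi-likelihood test gave two-sided p-values. These were adjusted by Benjamini-Hochberg over all genes tested and called under 0.05. Standard errors were derived from each log2 fold change and its F statistic. The 6 tumors were compared as 1 group with the 3 islet libraries, and a second fit with 3 groups gave the other comparisons. Alternatives were DESeq2 1.42.0, limma 3.58.1 (trend, prior count 2), the filter, the scaling, composition, a replicate block and each library left out. The edgeR fit was tested on simulated data. The members and lists were chosen with earlier results of these data known. Named genes are the members, the 2 highest and 2 lowest of each list in tumors against islets, Cdk5r1, Ins1, Ins2 and the 5 most similar genes. Some genes of the lists, called ones among them, are not reported here. Ptprn, Rab3d, Fos, Ttr, Irx2, Pdx1, Nkx6-1, Mafa, Th, Pnmt and Dbh were named after their values were seen. The paper's methods state biological replicates and the labels say no more, so p-values measure the spread between these samples.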

Additional observations from a re-analysis of the deposited data

Results flagged for a closer look

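Vgf in the tumor M2 was at 18.8 CPM, far above the other 5 tumors, whose levels ran from 0.317 to 1.72 CPM. On CPM without a log, the gap to the nearest tumor took up 0.924 of the whole range of the 6 tumors, above Dixon's critical value for a group of 6. A log scale draws in a high value, and the test was not made on one. Of the 10 members tested in this way over the 6 tumors, 1 was singled out, and chance singles out about 1 in 20 groups. M2 was the only sample labelled female.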

How the results depend on the processing

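Of the members' log2 fold changes under the alternatives, 674 kept their direction and their side of the threshold, 14 newly passed it and 22 reversed, and the cause was not tested. Library totals alone moved the median of all genes from 0.03 to 0.25 in tumors against islets, and relative to it every member stayed lower. The count of members called was 3 by DESeq2 in tumors against islets, 3 in functional and 1 in non-functional tumors against islets, and leaving out 1 library gave 0 to 1 in each. Leaving out M6 and NI1, chosen after the data were seen, gave 2, 1 and 1. For the lists, DESeq2 called 2 prohormone processing, 4 exocytosis, 1 synaptic vesicle, 1 neuroendocrine and 4 hormone genes. Leaving out 1 library gave 0 to 2, 0 to 3, 0 to 1, 0 to 1 and 0 to 1 of these, and 0 to 1 regulators. Without M6 and NI1 there were 2, 4, 1 and, for hormones, 1. The exocytosis list had 1 call with no filter, library totals or the replicate block, and the hormones 1 with no filter, library totals, limma-trend or the mean of both tumor groups.

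The titles number functional tumors and islets 1 to 3, but same-numbered samples did not deviate together (r = -0.05, 0.03 and -0.16). These values give no sign of pairs, though so few samples cannot settle whether the numbers pair them. With the replicate block, edgeR called 40 genes, 12 of them higher, and 0 members, Scg5 being at -1.41 (edgeR adjusted p = 0.283). In that fit Syt1 reversed to -0.12 and Creb1 to 0.15. M4 to M6 share no number with an islet library, so its fold changes rest on M1 to M3 against NI1 to NI3 alone. With library totals alone Ica1 was at 0.092, Neurod1 at 0.15 and Creb1 at 0.17, Scg2 at 0.13 and Pcsk1 at 0.15 in functional tumors against islets, and Scg5 at 0.14 and Syp at 0.18 in functional against non-functional tumors. With limma-trend Syt1 was at -0.11, Sv2c at -0.25, and Chga at -0.26 in functional against non-functional tumors. Without M6 and NI1 Neurod1 was at 0.00015, and in functional against non-functional tumors Chga was at -0.088, Scg5 at 0.018 and Cpe at 0.068. Leaving out 1 library gave -0.38 (M3) to 0.83 for Syt1, -0.17 to 0.084 (NI1, also M4) for Neurod1, -0.18 to 0.0045 (M5) for Creb1, -4.24 to 1.24 (NI3) for Sst and -1.71 to 0.83 (NI3) for Ppy. In functional tumors against islets it gave -0.70 to 0.17 (M3) for Scg2 and -0.40 to 0.011 (M3) for Pcsk1. In functional against non-functional tumors it gave -1.15 (M1, also M5 and M6) to 0.59 for Chga, -0.082 (M2, also M4) to 0.33 for Chgb, -0.0023 (M2) to 0.87 for Scg2, -0.11 (M4, also M2) to 0.29 for Scg3, -0.29 to 0.018 (M6) for Scg5, -0.62 (M2) to 3.02 for Vgf, -0.67 to 0.068 (M6) for Cpe and -0.27 to 0.12 (M5) for Syp. The names in parentheses are the libraries whose removal reversed the direction.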
